A study of Mus musculus with 20 samples.

Results

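Mature natural killer (NK) cells were compared with pro-B cells over 6 of the 20 expression arrays of the series, chosen by their labels. NK cells are innate lymphocytes that kill infected or transformed cells by releasing granzymes and perforin, and whose activity is set by the balance of activating and inhibitory receptors. Pro-B cells are an early stage of B cell development in which the immunoglobulin heavy chain gene is rearranged by the RAG recombinase and terminal transferase. Both cell types descend from lymphoid progenitors of the bone marrow, where the Id proteins that block E proteins favour the NK fate and the E proteins, with EBF1 and PAX5, drive the B fate.

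The 4 NK arrays came from mice of the 129 strain that lacked Rag2: 2 arrays of Ets1-present cells (genotype Rag2-- Ets1++) and 2 of Ets1-deficient cells (Rag2-- Ets1--). The 2 pro-B arrays came from wild-type C57bl/6 mice, as did 2 arrays of CD4 T cells used for orientation. All were sorted from bone marrow of mice 8 to 14 weeks old, and the RNA was amplified and labelled with biotin. Mice without Rag2 have no mature B or T cells of their own. Strain, Rag2 genotype and maturity changed together with the cell type, so their effects cannot be told apart. The labels do not say whether replicate arrays came from separate mice, so the p-values cover only how far the arrays spread, which may be technical. In the main fit that spread, and with it each standard error, was taken within all 9 groups of the 20 arrays. It is not the spread of the 6 compared arrays alone. In bulk samples of sorted cells, fewer expressing cells and less RNA per cell cannot be told apart.

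Values are log2 intensities of 1 probe set per gene, and differences are NK minus pro-B, with the mean of both NK genotypes set against the pro-B mean. A gene was called at a Benjamini-Hochberg adjusted p below 0.05 in limma, a linear model with pooled variances, provided that the estimates of both NK genotypes against pro-B cells had the same sign. Neither genotype had to be called by itself, so a call can rest mostly on 1 genotype. Of 18194 named genes, 13479 passed the filter on dim genes and were tested. Since probe sets differ in brightness, each gene is compared only with itself on other arrays. Differences are given with their standard error (SE). Where leaving out 1 of the 6 arrays ended a call, the difference without that array stands beside it. The same holds where an uncalled gene gained a call or a called difference moved by over 1.5 times. Averaging all probe sets of a gene, the dimmer ones included, moved 88 of 269 named called genes by over 1.5 times. It left 14 uncalled with the sign kept and turned the sign of 4 more, of which Dnmt3a and Nnt were not called either. Moves that kept the call are given for some genes only. A fold is given as a lower bound ("at least") where an array of the lower group was at or below the median of its own signals, with that median in place of the signal.

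The labels were set against defining genes first. The NK arrays carried the NK receptor genes Ncr1, at 8.53 to 9.75, and Klrk1, at 8.51 to 9.20, where the pro-B arrays lay at 3.23 and 3.56 and at 3.32 and 3.41. The pro-B arrays carried Vpreb1, at 11.84 and 12.93 against 4.07 to 4.92, and the stem and pro-B cell antigen Cd93, at 9.53 and 9.82 against 3.63 to 5.49. Klrb1c was not analysed here. Across the genes tested, the pro-B arrays correlated with each other at 0.97, the NK arrays of 1 genotype at 0.982 or 0.993, arrays of different NK genotypes at 0.966 to 0.968, and NK with pro-B arrays at 0.834 to 0.858. The root-mean-square standard deviation (SD) per gene was 0.397 in pro-B cells, 0.191 in Ets1-present and 0.315 in Ets1-deficient NK cells. The highest intensity on pro-B replicate 1 was 12738, where all other arrays of the series reached 18396 to 23596. Actin 3' signal exceeded 5' signal by 2.07 and 3.11 log2 units in the pro-B arrays and by 2.76 to 4.07 in the NK arrays.

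The 2 genes named in the genotypes were examined next. Rag2, a subunit of the V(D)J recombinase, had a level of 7.74 and 6.28 in the pro-B arrays, 3.83 and 4.01 in the Ets1-present NK arrays and 4.19 and 4.20 in the Ets1-deficient NK arrays. Its difference was -2.96 ± 0.37 (SE, adjusted p = 3.29e-06), and the pro-B arrays lay above all NK arrays although they were themselves apart. Ets1, after which the ETS transcription factors are named, had a level of 9.14 and 9.46 in the pro-B arrays, 11.34 and 11.45 in the Ets1-present NK arrays and 11.28 and 10.85 in the Ets1-deficient NK arrays. It was higher in NK cells by 1.93 ± 0.36 (SE, adjusted p = 0.000338). The Ets1-deficient arrays kept their signal. Whether the probes fall inside the deleted parts of either gene was not analysed here, so neither value checks a genotype label.

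NK cells and pro-B cells differed over a large share of the genes: 4664 of 13479 tested, or 34.6%, were called with both genotypes in agreement, and 34.8% without that condition. Of these, 2968 genes (22% of those tested) were higher and 1696 (12.6%) lower in NK cells. Raw differences, without the lower bound used for folds, reached 2-fold for 2217 of the higher and 1120 of the lower genes, and 32-fold for 71 and 28. With that bound some of the latter fell below 32-fold, such as Sh2d1a (at least 15.9-fold) and Rag1 (at least 18-fold). The median difference over all genes tested was 0.03. The split by direction depended on the scaling between arrays: 63.6% of the calls were higher in NK cells in the deposited scaling, 50.5% when arrays were quantile-normalized again (2425 higher and 2375 lower) and 49.3% when each array was centred on its housekeeping genes (2094 and 2150). These scalings moved the median of all genes to -0.10 and -0.21, so a difference smaller than these shifts has no settled direction.

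**Figure D1:**
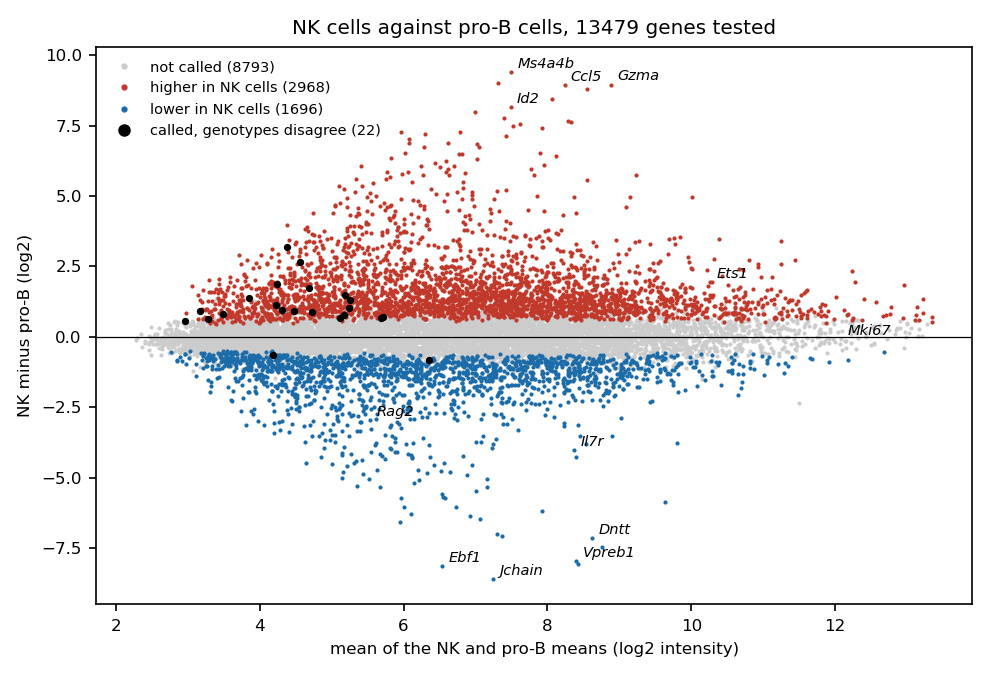
Difference between NK and pro-B cells (log2, vertical axis) against the mean of both levels (log2 intensity, horizontal axis) for the 13479 genes tested. Red points are the 2968 genes higher and blue points the 1696 lower in NK cells, grey points were not called, and the 22 black points were called but differed in direction between the NK genotypes.

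The 12 named genes highest in NK cells included secreted and granule effectors, receptors and an adaptor. Gzma, which encodes the granule protease granzyme A, had a level of 4.22 and 4.60 in the pro-B arrays, 13.10 and 13.18 in the Ets1-present NK arrays and 13.67 and 13.51 in the Ets1-deficient NK arrays. It was 497-fold higher in NK cells, a difference of 8.96 ± 0.26 (SE, adjusted p = 5.38e-15), and all NK arrays were far above both pro-B arrays. The membrane gene Ms4a4b (9.39 ± 0.30), the galectin Lgals3 (9.01 ± 0.23), the chemokine Ccl5 (8.94 ± 0.31), the CD94 receptor chain Klrd1 (8.80 ± 0.32), the signalling adaptor Tyrobp (8.44 ± 0.29) and the E protein inhibitor Id2 (8.16 ± 0.39) had differences of like size, those of Ms4a4b and Lgals3 above it. The inhibitory receptor Klre1 (7.99 ± 0.20), the calcium-binding neutrophil protein S100a8 (7.77 ± 0.40), the annexin Anxa2 (7.68 ± 0.34), the granule membrane protein Nkg7 (7.64 ± 0.29) and the thrombin receptor F2r (7.57 ± 0.43) completed the 12. Over the mean of their probe sets the differences were 5.37 for Ms4a4b and 2.90 for Anxa2.

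The 12 named genes lowest in NK cells were B lineage genes for the most part. Ebf1, the transcription factor that specifies B cells, had a level of 9.79 and 11.41 in the pro-B arrays, 2.40 and 2.43 in the Ets1-present NK arrays and 2.55 and 2.49 in the Ets1-deficient NK arrays. It was at least 109-fold higher in pro-B cells, a difference of -8.13 ± 0.32 (SE, adjusted p = 4.54e-13), and all 4 NK arrays lay below their medians. Over the mean of its probe sets the difference was -5.19. The immunoglobulin joining chain Jchain (-8.59 ± 0.32) had a larger difference still. The surrogate light chains Vpreb1 (-7.96 ± 0.37) and Igll1 (-7.45 ± 0.29), terminal transferase, Dntt (-7.15 ± 0.33), and the octamer coactivator Pou2af1 (-7.06 ± 0.48) followed in size. The sialyltransferase St6gal1 (-6.99 ± 0.47), Snn (-6.57 ± 0.32), the endoplasmic reticulum protein Mzb1 (-6.47 ± 0.38), the adaptor Blnk (-6.37 ± 0.32), the ETS factor Erg (-6.28 ± 0.34) and the calponin Cnn3 (-6.17 ± 0.45) made up the rest. The antigen receptor segments among the lowest genes were left out of this count.

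**Figure D2:**
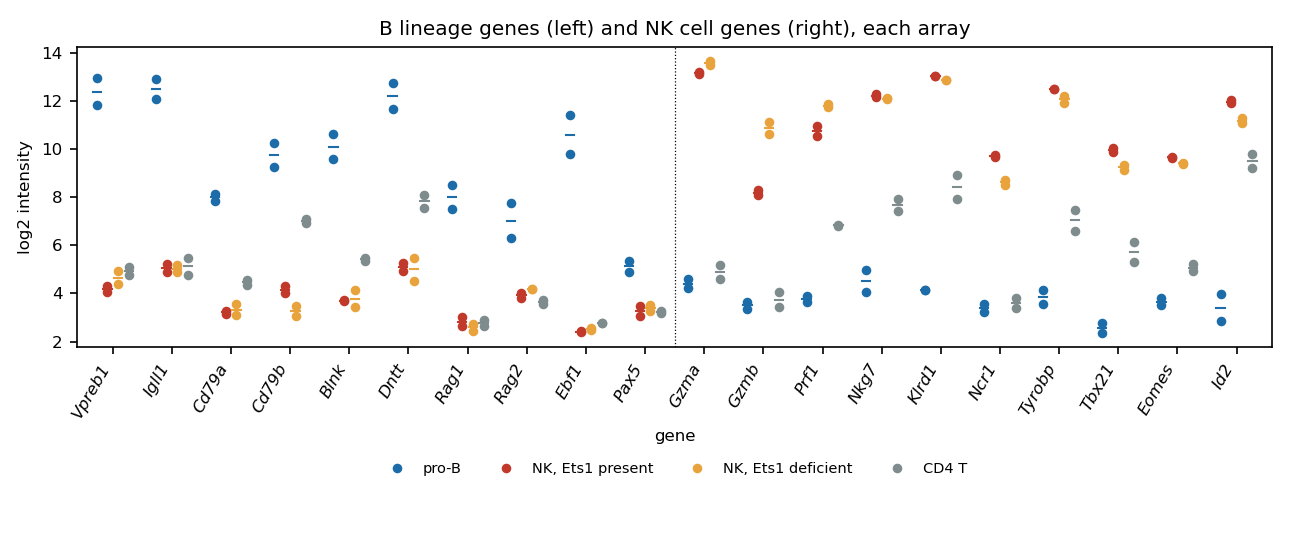
Level of 10 B lineage genes and 10 NK cell genes on each array (log2 intensity, vertical axis; points are arrays and bars the mean of 2), in pro-B cells, both NK genotypes and CD4 T cells. Each B lineage gene shown lies above all 4 NK arrays in both pro-B arrays, and each NK gene shown lies below them.

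Genes of the pre-B receptor and the B cell surface were lower in NK cells almost throughout. Of 25 listed genes, 22 had a probe set and 21 were tested. None was higher and 18 were lower in NK cells, so 85.7% were lower against 12.6% of all genes. The median was -3.73 against 0.03. Vpreb1, 1 of the proteins that stand in for the light chain before it is rearranged, had a level of 11.84 and 12.93 in the pro-B arrays, 4.32 and 4.07 in the Ets1-present NK arrays and 4.38 and 4.92 in the Ets1-deficient NK arrays, and was 249-fold higher in pro-B cells. Its partner Igll1, lambda5, had a level of 12.07 and 12.90 in the pro-B arrays, 5.20 and 4.90 in the Ets1-present NK arrays and 5.16 and 4.89 in the Ets1-deficient NK arrays, with no overlap between the groups. The signalling chains Cd79a (-4.72 ± 0.22) and Cd79b (-6.04 ± 0.41), the inhibitory lectin Cd22 (-4.73 ± 0.30), the early B cell proteins Cd24a (-5.85 ± 0.34) and Cd93 (-5.04 ± 0.22), the tetraspanin Cd81 (-5.67 ± 0.24), the peptidase Enpep (-4.28 ± 0.22) and Vpreb3 (-4.48 ± 0.21) were lower as well. The smallest of the called differences were those of Cd72 (-0.86 ± 0.32, not called at -1.0 to -0.72 when any 1 of 5 arrays was left out) and Cd37 (-0.87 ± 0.25, not called at -0.78 without pro-B replicate 2). The heavy chain Ighm, at 12.46 and 12.90 in pro-B and 10.30 to 10.39 in NK arrays, differed by -2.36 ± 1.02 (SE, adjusted p = 0.0832, called at -3.71 over the mean of its probe sets) and was not called. It was called lower in 6 alternatives, among them the fit on the 6 arrays alone (adjusted p = 3.35e-05) and both other scalings (adjusted p = 0.0333 and 0.0228). In CD4 T arrays it stood at 12.29 and 12.47. Spn, the sialoglycoprotein CD43, which pro-B and NK cells both carry, had 0.58 ± 0.32 and Cr2, a mature B cell receptor, -0.24 ± 0.21; neither was called. Fcer2a was dim.

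The promoters of these genes were searched for the letters of sites bound by lineage factors, in RefSeq sequence of the GRCm38.p6 build and on both strands. CAGGTG, an E-box that E proteins prefer, stood in the 250 bases before the start of 7 of the 13 called pre-B and surface genes with a promoter sequence (53.8%). The share was 19.4% of the 10845 tested genes with a sequence and 17.4% of the 1388 called lower. The same letters stood in 1 of 13 B lineage factors lower in NK cells (7.69%). On the NK side they stood in 4 of 6 cytokine and chemokine genes (66.7%) and 5 of 12 T and NK signalling genes (41.7%). The EBF palindrome stood in 1 of the 13 (7.69%) and in 1.18% of all, and CCGGAAGT, an ETS site, in 0 of the 13 and in 6.07% of all. A match is a description of letters and not evidence of binding. The 3 promoters below belong to pre-B receptor genes with an E-box match, shown in capitals, and run 5′ to 3′ on the gene's strand up to the base before the start. Igll1 lies at chr16:16863986-16864235, minus strand, Vpreb1 at chr16:16869256-16869505, minus strand and Cd79a at chr7:24897247-24897496, plus strand.
Igll1: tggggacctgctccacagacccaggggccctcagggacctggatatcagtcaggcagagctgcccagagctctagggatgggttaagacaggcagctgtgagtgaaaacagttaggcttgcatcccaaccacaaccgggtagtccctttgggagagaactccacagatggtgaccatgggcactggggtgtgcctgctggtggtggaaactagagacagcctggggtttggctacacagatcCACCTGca
Vpreb1: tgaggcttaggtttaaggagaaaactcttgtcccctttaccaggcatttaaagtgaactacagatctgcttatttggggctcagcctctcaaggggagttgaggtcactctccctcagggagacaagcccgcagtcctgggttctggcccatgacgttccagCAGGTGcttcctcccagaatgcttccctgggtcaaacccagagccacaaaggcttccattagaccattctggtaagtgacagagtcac
Cd79a: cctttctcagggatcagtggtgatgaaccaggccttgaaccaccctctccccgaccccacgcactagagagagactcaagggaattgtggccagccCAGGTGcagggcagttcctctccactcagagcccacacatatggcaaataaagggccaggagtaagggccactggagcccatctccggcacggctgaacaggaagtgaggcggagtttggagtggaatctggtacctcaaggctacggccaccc
The match begins 8 bases before the start in Igll1, 88 in Vpreb1 and 154 in Cd79a. The EBF palindrome has no match in these 3 windows.

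Of the genes of V(D)J recombination, the joining of antigen receptor segments, both recombinase genes and terminal transferase were lower. Dntt, the terminal transferase that adds bases at the joins, had a level of 11.65 and 12.74 in the pro-B arrays, 5.25 and 4.91 in the Ets1-present NK arrays and 5.49 and 4.54 in the Ets1-deficient NK arrays and was 142-fold higher in pro-B cells. Rag1, the catalytic subunit of the recombinase, had a level of 8.50 and 7.51 in the pro-B arrays, 2.64 and 3.01 in the Ets1-present NK arrays and 2.45 and 2.73 in the Ets1-deficient NK arrays, and differed by -5.30 ± 0.37 (SE, adjusted p = 1.7e-09). Rag1 is intact in Rag2-deficient mice, and both genes are silent in mature lymphocytes, so the Rag2 genotype and the stage cannot be told apart for Rag2 itself. Of the other genes of the list, most of which repair broken ends in all cells, Xrcc6 (-2.29 ± 0.34), Nhej1 (-1.46 ± 0.26) and Lig4 (-1.39 ± 0.25) were lower, Prkdc (0.78 ± 0.28, not called at 0.46 to 0.84 when any 1 of 5 arrays was left out) and Polm (1.07 ± 0.25) were higher, and Xrcc5 (-0.35 ± 0.26), Xrcc4 (-0.38 ± 0.25), Atm (-0.41 ± 0.36, called at -1.34 over the mean of its probe sets), Trp53bp1 (0.48 ± 0.30, called at 1.09 without pro-B replicate 2), Poll (-0.67 ± 0.27, called at -0.94 without Ets1-deficient NK replicate 1) and Hmgb2 (-0.59 ± 0.40) were not called. In all, 6 of 14 genes tested were lower and 2 higher, or 42.9% and 14.3% against 12.6% and 22% of all genes. The median was -0.63, and with housekeeping genes as the centre 0 were higher. Dclre1c and Hmgb1 were not analysed here.

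Transcription factors of the B lineage followed. Of the 25 listed, all tested, 15 were lower and 4 higher in NK cells, 60% and 16% against 12.6% and 22% of all genes. The median was -1.51. After Ebf1 and Pou2af1 the largest differences were in Erg, in the zinc finger factor Bcl11a (-5.71 ± 0.29), in Irf4 (-5.19 ± 0.31) and in Spib (-5.04 ± 0.22). Pou2af1 lay at 10.62 and 11.19 in pro-B arrays, but the Ets1-deficient NK arrays, at 3.99 and 6.10, stood above those with Ets1, at 2.44 and 2.83. Pax5, which commits cells to the B lineage, had a low signal on its probe set, 5.36 and 4.91 in the pro-B arrays, 3.50 and 3.08 in the Ets1-present NK arrays and 3.50 and 3.25 in the Ets1-deficient NK arrays, and was lower, with a difference of -1.80 ± 0.24 (SE, adjusted p = 8.51e-06). The precursor factors Sox4 (-3.10 ± 0.34), Lef1 (-2.28 ± 0.27), Bach2 (-1.94 ± 0.32), Mef2c (-1.51 ± 0.29), Myb (-1.26 ± 0.22) and Spi1 (-1.31 ± 0.27) were lower too. The 4 listed factors that were higher in NK cells were Klf3 (2.96 ± 0.50, 0.49 over the mean of its probe sets), the lymphoid factor Ikzf1 (1.17 ± 0.22, not called at 0.33 over the mean of its probe sets), Irf8 (1.15 ± 0.32, not called at 1.03 without pro-B replicate 1) and Zfp521 (0.82 ± 0.23, not called at 0.63 without pro-B replicate 1, not called at 0.46 over the mean of its probe sets). Foxo1, at 9.53 and 9.99 in pro-B and 8.53 to 10.07 in NK arrays, was not called (-0.30 ± 0.28), nor was Aff3 (-0.20 ± 0.28, called at -1.10 over the mean of its probe sets).

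E proteins are transcription factors that bind E-boxes as dimers, and Id proteins lack the DNA-binding part and hold them inactive. Id2, the Id protein on which NK cells depend, had a level of 3.97 and 2.86 in the pro-B arrays, 11.90 and 12.03 in the Ets1-present NK arrays and 11.29 and 11.06 in the Ets1-deficient NK arrays and was at least 205-fold higher in NK cells. Over the mean of its probe sets the difference was 4.46 in place of 8.16 ± 0.39. The CD4 T arrays lay between, at 9.79 and 9.23. Id3 ran the other way, with a level of 7.12 and 7.03 in the pro-B arrays, 3.81 and 3.57 in the Ets1-present NK arrays and 4.30 and 4.93 in the Ets1-deficient NK arrays, and was lower, with a difference of -2.92 ± 0.30 (SE, adjusted p = 3.34e-07). The E protein genes Tcf3, which encodes E2A, at 8.81 and 9.17 against 6.82 to 7.50, and Tcf4, at 8.63 and 9.44 against 6.65 to 8.16, were lower, with differences of -1.79 ± 0.30 (SE, adjusted p = 9.84e-05) and -1.65 ± 0.24 (SE, adjusted p = 2.59e-05). Tcf12, the gene of the E protein HEB, had 0.63 ± 0.31 and was not called. Lyl1, a helix-loop-helix partner of E proteins, was lower, with a difference of -4.56 ± 0.31 (SE, adjusted p = 9.35e-10), and Tal1, at a low level, was higher by 0.75 ± 0.27, not called at 0.32 to 0.77 when any 1 of 5 arrays was left out, 1.18 without pro-B replicate 1. Id1 and Id4 were dim.

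**Figure D3:**
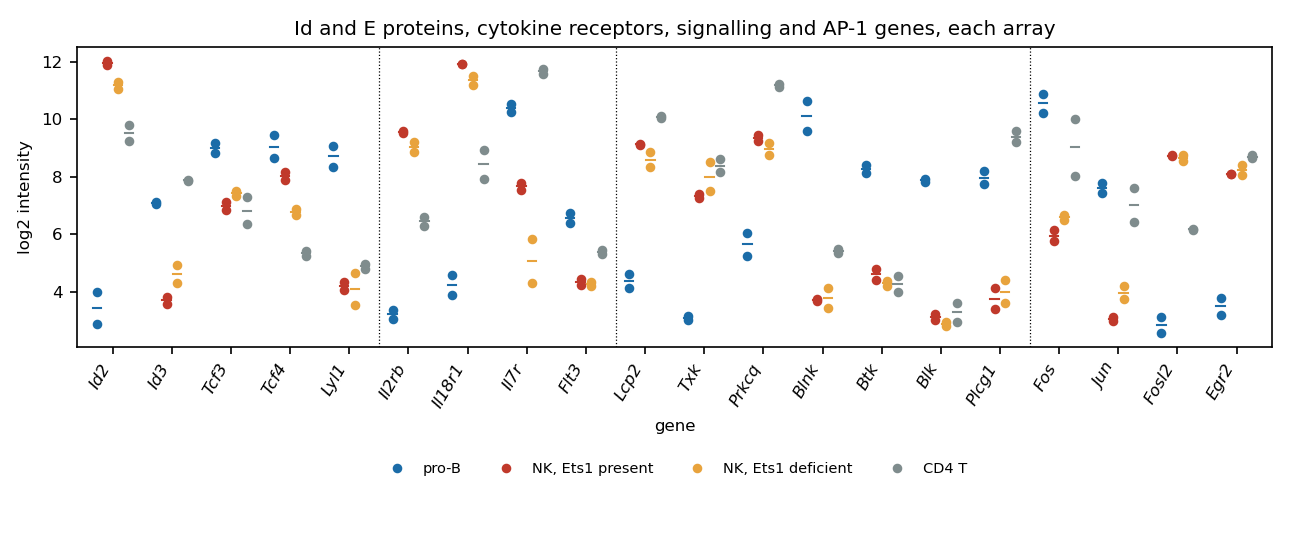
Level on each array (log2 intensity, vertical axis; points are arrays and bars the mean of 2) of genes that act in the same process and differ in opposite directions. From left to right the dotted lines separate Id and E proteins with Lyl1, cytokine receptors, receptor signalling genes, and AP-1 genes with Egr2. Id2 is high and Id3 low in all 4 NK arrays.

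The transcription factors of NK cells showed the reverse of the B lineage list. Of 26 tested, 20 were higher, none was lower and 6 were not called, so 76.9% were higher against 22% of all genes. The median was 3.06. Tbx21, the T-box factor T-bet, had a level of 2.35 and 2.78 in the pro-B arrays, 9.86 and 10.04 in the Ets1-present NK arrays and 9.33 and 9.13 in the Ets1-deficient NK arrays, and was higher by 7.02 ± 0.24 (SE, adjusted p = 1.04e-13). Its paralog Eomes had a level of 3.51 and 3.82 in the pro-B arrays, 9.63 and 9.68 in the Ets1-present NK arrays and 9.41 and 9.39 in the Ets1-deficient NK arrays, and was higher by 5.87 ± 0.23 (SE, adjusted p = 3.29e-13). All 4 NK arrays were far above both pro-B arrays for each, and in CD4 T arrays they were at 6.14 and 5.30 and 4.94 and 5.21. Factors of NK development and maturation that were higher included Prdm1 (4.98 ± 0.24), Bhlhe40 (4.90 ± 0.43), Ikzf2 (4.13 ± 0.35), Klf2 (4.03 ± 0.42), Nfil3 (3.53 ± 0.26), Tox (3.17 ± 0.19), Zbtb16 (3.20 ± 0.27), Gata3 (2.99 ± 0.24), Ikzf3 (3.12 ± 0.26) and Runx3 (1.93 ± 0.33). Runx1 (-0.41 ± 0.27), Gfi1 (0.66 ± 0.43), Hlx (0.52 ± 0.34), Elf4 (0.17 ± 0.21, called at 0.51 over the mean of its probe sets), Rora (-0.65 ± 0.29) and Tox2 (1.04 ± 0.46, called at 1.76 without Ets1-deficient NK replicate 1) were not called. Tox2 stood at 3.75 and 3.79 in Ets1-present arrays and reached 3.95 and 6.82 in those without Ets1, so 1 array set its mean.

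Genes of the cytotoxic machinery were higher in NK cells for the most part. Of 23 genes tested, 19 were higher and none lower, so 82.6% were higher against 22% of all genes. The median was 2.83. Prf1, perforin, which opens the target membrane, had a level of 3.64 and 3.90 in the pro-B arrays, 10.54 and 10.94 in the Ets1-present NK arrays and 11.86 and 11.73 in the Ets1-deficient NK arrays, and was at least 172-fold higher in NK cells. Gzmb, granzyme B, had a level of 3.35 and 3.65 in the pro-B arrays, 8.08 and 8.29 in the Ets1-present NK arrays and 11.12 and 10.60 in the Ets1-deficient NK arrays, and differed by 6.02 ± 0.31 (SE, adjusted p = 2.01e-11). For Gzmb the Ets1-deficient arrays were the higher of the NK arrays, by 2.67 ± 0.36 (SE, adjusted p = 0.000126). The death ligand Fasl (6.52 ± 0.27), the granzyme Gzmk (5.68 ± 0.29), the granule proteins Ctsw (6.41 ± 0.28) and Nkg7, and the serpins Serpinb6b (7.12 ± 0.36) and Serpinb9 (6.11 ± 0.45), which shield a killer cell from its own granzymes, were higher. So were genes of granule transport and fusion, Stx11 (5.0 ± 0.30), Lyst (2.86 ± 0.41), Unc13d (1.80 ± 0.29) and Rab27a (1.11 ± 0.37, not called at 0.96 to 1.26 when any 1 of 4 arrays was left out), and the granule proteoglycan Srgn (0.95 ± 0.25, not called at 0.58 without pro-B replicate 1). Gzmm, at a low signal, had a difference of 1.06 ± 0.28, not called at 1.0 without pro-B replicate 1. The lysosomal genes Lamp1 (0.08 ± 0.21) and Lamp2 (0.40 ± 0.24), Stxbp2 (0.37 ± 0.24) and the death ligand Tnfsf10 (0.66 ± 0.33, called at 0.91 without Ets1-deficient NK replicate 2) were not called, and Gzmc and Gzmd were dim.

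Promoters of the called cytotoxic genes were searched in the same way. TCACACC, a core of T-box sites, stood in the 250 bases before the start of 5 of 17 such genes with a sequence (29.4%), namely Ctsc, Gzmk, Gzmm, Nkg7 and Rab27a. Gzmm and Rab27a have more than 1 start, and a match before any start was counted. The share was 3.62% of the 10845 tested genes and 3.6% of the 2418 called higher. They stood in 0 of 13 NK transcription factors, 0 of 6 inhibitory receptors and 0 of 18 cytokine receptor and JAK-STAT genes higher in NK cells. They stood in 3 of 13 B lineage factors lower in NK cells (23.1%). TGTGGTT, a core of Runx sites, stood in 4 of the 17 (23.5%) and in 4.12% of all, CAGGTG in 4 (23.5%) and CCGGAAGT in 0. In all, 7 motifs were searched over the lists, so single shares are a description without a test. The 3 promoters below are those of cytotoxic genes with a T-box match, in capitals, read 5′ to 3′ on the gene's strand, where GGTGTGA is the same site on the other strand. Nkg7 lies at chr7:43436888-43437137, plus strand, Gzmk at chr13:113180966-113181215, minus strand and Ctsc at chr7:88277835-88278084, plus strand.
Nkg7: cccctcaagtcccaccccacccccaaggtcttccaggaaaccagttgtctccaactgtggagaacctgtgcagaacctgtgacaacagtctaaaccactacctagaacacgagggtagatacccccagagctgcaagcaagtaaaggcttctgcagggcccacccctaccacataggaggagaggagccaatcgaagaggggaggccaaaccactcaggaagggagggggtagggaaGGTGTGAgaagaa
Gzmk: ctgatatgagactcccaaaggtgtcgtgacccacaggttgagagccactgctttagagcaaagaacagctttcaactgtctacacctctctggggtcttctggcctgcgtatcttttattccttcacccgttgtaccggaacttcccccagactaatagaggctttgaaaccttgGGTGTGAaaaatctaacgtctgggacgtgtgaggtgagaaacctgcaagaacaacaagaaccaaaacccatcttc
Ctsc: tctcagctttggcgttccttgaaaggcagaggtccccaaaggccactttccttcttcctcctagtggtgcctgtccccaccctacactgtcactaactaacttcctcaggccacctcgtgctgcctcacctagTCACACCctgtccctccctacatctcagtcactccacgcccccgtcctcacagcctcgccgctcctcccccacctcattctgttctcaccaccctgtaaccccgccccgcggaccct
The match begins 13 bases before the start in Nkg7, 75 in Gzmk and 117 in Ctsc. The difference between NK and pro-B cells was 7.64 ± 0.29 for Nkg7, 5.68 ± 0.29 for Gzmk and 1.69 ± 0.34 for Ctsc, a cathepsin that activates granzymes, so like letters stood before genes of quite different sizes of difference.

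Activating receptors and their adaptors were higher in all 15 tested genes, where 22% of all genes were higher. With each NK genotype called by itself, 12 were higher. The median was 4.66. Ncr1, the receptor NKp46, had a level of 3.23 and 3.56 in the pro-B arrays, 9.67 and 9.75 in the Ets1-present NK arrays and 8.69 and 8.53 in the Ets1-deficient NK arrays, and differed by 5.77 ± 0.32 (SE, adjusted p = 6.52e-11). Tyrobp, the adaptor DAP12 that carries the signal of several of these receptors, had a level of 4.14 and 3.54 in the pro-B arrays, 12.49 and 12.50 in the Ets1-present NK arrays and 11.93 and 12.21 in the Ets1-deficient NK arrays, and was at least 315-fold higher. The Fc receptor Fcgr3 (6.25 ± 0.26) and its chain Fcer1g (5.16 ± 0.25), the lectins Klrb1a (7.20 ± 0.20) and Klrk1 (5.50 ± 0.22), the adaptor Hcst (2.40 ± 0.30), and Cd244a (6.51 ± 0.37), Crtam (4.49 ± 0.36) and Cd160 (3.40 ± 0.26) were higher as well. In Slamf6 (0.90 ± 0.30, not called at 0.73 to 0.90 when any 1 of 4 arrays was left out) and Slamf7 (0.79 ± 0.21, not called at 0.72 without pro-B replicate 1), receptor genes with signal in pro-B cells too, the differences were small, and for Slamf6 the mean over its probe sets was -0.68, with the sign turned. In Slamf6 the Ets1-deficient minus Ets1-present difference was -1.58. Klrb1b, Cd226 and Klrc2 were dim, and 5 listed genes were not analysed here.

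Among the Ly49 and other inhibitory receptors, 8 of 12 tested were higher, 1 was lower, and in 2 the genotypes disagreed; 66.7% were higher against 22% of all genes. Klrd1 and Klrc1, which pair as the CD94-NKG2A receptor, were at 12.86 to 13.04 and 9.10 to 9.82 in the NK arrays against 4.16 and 4.15 and 2.20 and 2.45 in the pro-B arrays. Their differences were 8.80 ± 0.32 (SE, adjusted p = 2.17e-13) and 7.29 ± 0.20 (SE, adjusted p = 3.21e-15). Klrg1 (5.07 ± 0.27), Cd96 (3.96 ± 0.28), Klra5 (4.69 ± 0.26), Klra7 (4.64 ± 0.26) and Klra17 (4.63 ± 0.25) were also higher. The Klra probe sets can share signal among near-identical copies, and the copies themselves differ between the 129 and C57bl/6 strains, so these values are uncertain. Ceacam1 was lower, with a difference of -0.95 ± 0.23 (SE, adjusted p = 0.00349), and Lag3 had 0.45 ± 0.29 and was not called. Of the 29 listed, 12 were not analysed here and 5 were dim.

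Some related genes of receptor signalling differed in opposite directions. As named genes were picked in part after their values were seen, the pairs below are examples. The adaptor SLP-76, encoded by Lcp2, had a level of 4.61 and 4.13 in the pro-B arrays, 9.09 and 9.15 in the Ets1-present NK arrays and 8.84 and 8.33 in the Ets1-deficient NK arrays, whereas Blnk, the related adaptor of B cells, had a level of 9.58 and 10.63 in the pro-B arrays, 3.67 and 3.72 in the Ets1-present NK arrays and 3.42 and 4.13 in the Ets1-deficient NK arrays. The differences were 4.48 ± 0.30 (SE, adjusted p = 6.79e-10) and -6.37 ± 0.32 (SE, adjusted p = 1.33e-11), opposite in sign. The Tec kinase genes ran the same way, with Txk (4.58 ± 0.27) higher and Btk (-3.83 ± 0.37) lower, as did the Src family kinase genes, with Fyn (2.28 ± 0.26) higher and Blk (-4.88 ± 0.25) lower. Rasgrp1 (4.52 ± 0.21) was higher and Rasgrp3 (-2.55 ± 0.28) lower. Of the phospholipases, Plcg1, at 7.74 and 8.18 in pro-B and 3.38 to 4.40 in NK arrays, was lower, with a difference of -4.09 ± 0.32 (SE, adjusted p = 6.65e-09), and Plcg2, at 10.16 and 10.38 and 9.32 to 9.98, had -0.54 ± 0.21, called at -0.63 without Ets1-deficient NK replicate 2 and was not called. In CD4 T arrays Plcg1 was at 9.57 and 9.18 and Plcg2 at 5.98 and 5.65.

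In the list of T and NK type signalling 18 of 25 tested genes were higher and 2 lower, 72% and 8% against 22% and 12.6% of all genes. The median was 3.51. In the list of B type signalling 2 of 16 were higher and 7 lower, 12.5% and 43.8%. The median was -0.29. The first held the receptor Cd2 (5.97 ± 0.34), the adaptors Sh2d1a (5.37 ± 0.20), Fyb (5.13 ± 0.37), Skap1 (4.27 ± 0.24) and Cd247 (4.17 ± 0.32, 1.25 over the mean of its probe sets), the protein kinase C gene Prkcq (3.51 ± 0.32), Ptpn22 (3.77 ± 0.24) and Nfatc2 (3.30 ± 0.31, 0.47 over the mean of its probe sets). The second held Bank1 (-3.11 ± 0.28), Pik3cd (-2.84 ± 0.67, not called at -1.26 without pro-B replicate 1, -4.41 without pro-B replicate 2, not called at -0.27 over the mean of its probe sets) and Vav3 (-1.43 ± 0.37, not called at -1.26 without pro-B replicate 1), and 2 genes that were higher in NK cells, Pik3ap1 (2.33 ± 0.28) and Malt1 (3.22 ± 0.55). Pik3cd stood at 11.09 and 7.93 in the pro-B arrays, so 1 array set much of its difference. Several proteins that act in both lineages were not called: the kinase Syk was at 9.07 and 9.29 in pro-B and 9.58 to 9.71 in NK arrays (0.44 ± 0.23), the phosphatase gene Ptpn6 had 0.28 ± 0.21 and the adaptor Grb2 0.19 ± 0.33. Zap70 (0.25 ± 0.24, called at 1.72 over the mean of its probe sets), Lat (-0.10 ± 0.26) and Cd3e (-0.20 ± 0.23) were not called either.

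Cytokine receptors differed in both directions. Il2rb, the chain shared by the receptors for interleukin 2 and interleukin 15, which NK cells need to survive, had a level of 3.05 and 3.37 in the pro-B arrays, 9.50 and 9.60 in the Ets1-present NK arrays and 8.85 and 9.19 in the Ets1-deficient NK arrays, and was higher by 6.08 ± 0.22 (SE, adjusted p = 2.05e-13). Il7r, the receptor for the growth factor of pro-B cells, had a level of 10.25 and 10.53 in the pro-B arrays, 7.52 and 7.79 in the Ets1-present NK arrays and 4.31 and 5.82 in the Ets1-deficient NK arrays, and was lower, with a difference of -4.03 ± 0.37 (SE, adjusted p = 8.09e-08). In Il7r the Ets1-deficient NK arrays were below the Ets1-present ones by -2.59 ± 0.43 (SE, adjusted p = 0.00113), and CD4 T arrays were at 11.56 and 11.76. Both chains of the interleukin 18 receptor, Il18r1 (7.41 ± 0.33) and Il18rap (5.76 ± 0.28), and Il10ra (3.18 ± 0.39), Il10rb (3.01 ± 0.30) and Il12rb1 (2.12 ± 0.29) were higher. The progenitor receptor Flt3 (-2.25 ± 0.37) and the feedback inhibitor Socs2 (-2.14 ± 0.37) were lower, and Socs3 (3.67 ± 0.48) was higher. In Socs2 the Ets1-deficient NK arrays were above the Ets1-present ones by 2.89. The kinases Jak1 (1.70 ± 0.34), Jak2 (1.99 ± 0.32), Jak3 (1.38 ± 0.27) and Tyk2 (1.33 ± 0.25), and the signal transducers Stat3 (1.51 ± 0.24), Stat4 (2.12 ± 0.38) and Stat6 (1.36 ± 0.22), were higher by smaller amounts. In all, 23 of 41 tested were higher and 5 lower (3 without pro-B replicate 2), 56.1% and 12.2% against 22% and 12.6% of all genes. The median was 1.04.

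Of the cytokines and chemokines that NK cells release, 8 of 18 tested were higher and 2 lower, 44.4% and 11.1% against 22% and 12.6% of all genes. The median was 1.20. Ccl5 had a level of 3.61 and 3.92 in the pro-B arrays, 12.78 and 12.80 in the Ets1-present NK arrays and 12.47 and 12.79 in the Ets1-deficient NK arrays and was at least 463-fold higher. Ifng, interferon gamma, was at 2.44 and 2.95 in pro-B and 5.99 to 6.24 in NK arrays (3.42 ± 0.24 (SE, adjusted p = 1.72e-09)). The chemokines Xcl1 (4.74 ± 0.23), Ccl3 (3.94 ± 0.44) and Ccl4 (2.50 ± 0.31) were higher, with the Ets1-present arrays above the Ets1-deficient ones for each. Ltb, lymphotoxin beta, had a level of 4.82 and 5.91 in the pro-B arrays, 10.24 and 10.19 in the Ets1-present NK arrays and 5.66 and 5.35 in the Ets1-deficient NK arrays, so that its difference of 2.49 ± 0.33 (SE, adjusted p = 6.94e-06, not called at 1.95 to 2.41 when any 1 of 2 arrays was left out) came from the Ets1-present arrays. Tnfsf11 (-2.29 ± 0.34) and Csf1 (-0.87 ± 0.24, not called at -0.64 without pro-B replicate 2) were lower, and Tnf (-0.44 ± 0.28), Lta (-0.51 ± 0.25, called at -1.0 without pro-B replicate 2) and Tgfb1 (0.31 ± 0.32) were not called.

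Genes of trafficking and adhesion were higher in 23 of 34 tested and lower in 3, 67.6% and 8.82% against 22% and 12.6% of all genes. The median was 1.39. Itgal, the alpha chain of the LFA-1 integrin with which NK cells bind targets, had a level of 6.26 and 6.15 in the pro-B arrays, 10.57 and 10.71 in the Ets1-present NK arrays and 10.62 and 10.53 in the Ets1-deficient NK arrays, and its partner Itgb2 was higher by 3.35 ± 0.29 (SE, adjusted p = 3.4e-08). The chemokine receptor Cxcr3 (5.76 ± 0.22), the sphingosine phosphate receptor S1pr5 (5.15 ± 0.33), through which NK cells leave the marrow, and the integrins Itgb7 (4.89 ± 0.27), Itgax (4.82 ± 0.24) and Itgb1 (2.70 ± 0.36) were higher. So were Cd27 (3.92 ± 0.28), Thy1 (3.57 ± 0.28) and Selplg (2.85 ± 0.20). Ccr7 (-1.91 ± 0.32), Cd69 (-1.12 ± 0.41, not called at -1.23 to -1.01 when any 1 of the 6 arrays was left out) and Vcam1 (-0.58 ± 0.21, not called at -0.62 to -0.43 when any 1 of 4 arrays was left out, not called at -0.31 over the mean of its probe sets) were lower. Cxcr4, which retains cells in the marrow, had a level of 7.24 and 7.89 in the pro-B arrays, 9.13 and 9.16 in the Ets1-present NK arrays and 8.53 and 8.61 in the Ets1-deficient NK arrays and, with 1.29 ± 0.78, was not called, although the NK arrays lay above both pro-B arrays. It was called in the fit on the 6 arrays alone (adjusted p = 0.00118). Cd44 (0.04 ± 0.23) was not called, with the Ets1-present arrays at 9.30 and 9.59 and the Ets1-deficient arrays at 7.51 and 6.96 on either side of the pro-B arrays at 8.28 and 8.32.

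The Gimap genes, GTPases that sustain lymphocyte survival and lie side by side in the genome, were higher in 7 of 8, 87.5% against 22% of all genes. The median was 2.61. Gimap4 had a level of 7.66 and 7.38 in the pro-B arrays, 12.67 and 12.69 in the Ets1-present NK arrays and 12.31 and 12.35 in the Ets1-deficient NK arrays, and Gimap8 (4.60 ± 0.30), Gimap7 (3.78 ± 0.31) and Gimap3 (3.10 ± 0.23) followed. Gimap5 had 0.78 ± 0.31 and was not called. Against CD4 T cells none of the 8 was called higher and 3 were lower in NK cells, and all 8 were lower in pro-B cells. The 2 comparisons share the CD4 T arrays, and 13.2% and 17% of all genes were called lower in them.

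Among MHC genes the class I pathway was higher in part, with B2m (1.41 ± 0.25), H2-D1 (1.18 ± 0.34, not called at 1.12 without pro-B replicate 1), Tap1 (1.01 ± 0.24, not called at 0.72 without pro-B replicate 1, not called at 0.02 over the mean of its probe sets), Tap2 (1.51 ± 0.26), Tapbp (1.58 ± 0.24) and Psmb8 (1.20 ± 0.32, not called at 1.09 without pro-B replicate 1). H2-K1 (0.13 ± 0.21) and Psmb9 (-0.04 ± 0.30) were not called. Of class II, H2-Ab1 (-2.06 ± 0.36) and H2-Ob (-3.48 ± 0.32) were lower, H2-DMa (1.90 ± 0.28) and H2-Oa (1.85 ± 0.32) were higher, and H2-Aa (-0.32 ± 0.31) and Cd74 (-0.64 ± 0.28) were not called. In all, 10 of 25 were higher and 2 lower, 40% and 8% against 22% and 12.6% of all genes. The median was 0.25. Of 32 interferon-stimulated genes tested, 10 were higher and 7 lower, 31.2% and 21.9%. The median was -0.06, which was 0.11 without pro-B replicate 2. They were led by Samhd1 (3.04 ± 0.40), Ifi35 (1.71 ± 0.26) and Gbp3 (1.64 ± 0.47, not called at 1.45 without pro-B replicate 2) on the high side and Xaf1 (-1.98 ± 0.27), Ifitm3 (-1.58 ± 0.28) and Dhx58 (-1.29 ± 0.35, not called at -0.55 without pro-B replicate 2, -2.04 without pro-B replicate 1) on the low side. The probe sets of Xaf1 disagree, since their mean differed by 1.80.

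**Figure D4:**
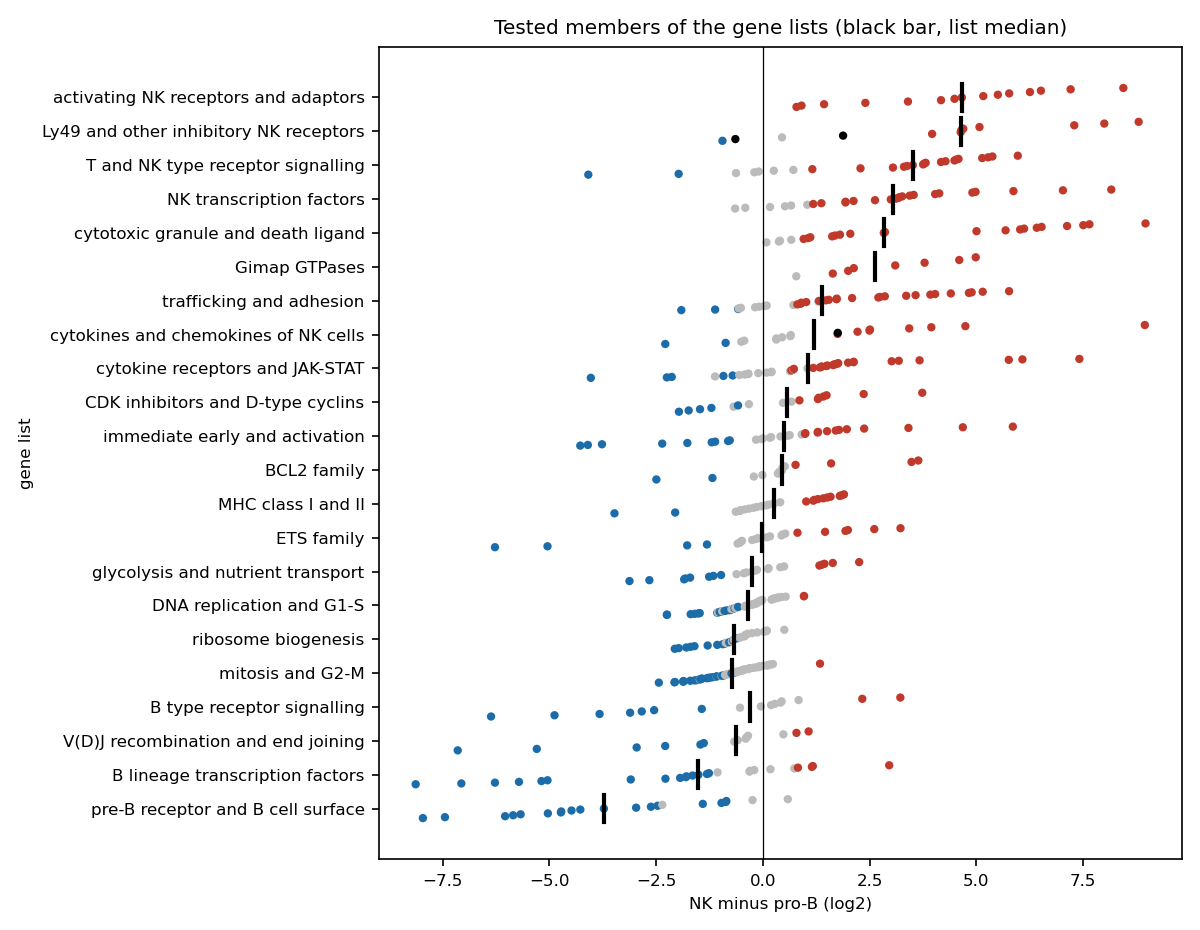
Difference between NK and pro-B cells (log2, horizontal axis) of the tested members of 22 gene lists, 1 point per gene, in red where higher, blue where lower, grey where not called and black where the genotypes disagreed. The black bars, list medians, run from -3.73 for the pre-B receptor and B cell surface to 4.66 for activating NK receptors.

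Proliferation genes were high in both cell types. Mki67, a marker of cycling cells, had a level of 11.73 and 12.51 in the pro-B arrays, 12.07 and 12.01 in the Ets1-present NK arrays and 12.26 and 11.87 in the Ets1-deficient NK arrays, and of 8.0 and 7.80 in CD4 T cells. It differed by -0.07 ± 0.38 (SE, adjusted p = 0.909) between NK and pro-B cells and was higher than in CD4 T cells by 4.15 ± 0.38 (SE, adjusted p = 7.06e-08) in NK cells. The topoisomerase Top2a was at 11.32 and 11.64 in pro-B, 10.66 to 11.41 in NK and 6.97 and 6.93 in CD4 T arrays. Of 53 replication genes tested, 44 were higher in NK than in CD4 T cells and 48 higher in pro-B than in CD4 T cells. Of 61 mitotic genes the counts were 55 and 57. The background for these shared-control comparisons was 16.8% and 11.8% of all genes. The medians were 1.65 and 2.20 for replication and 3.47 and 4.31 for mitosis.

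Set against pro-B cells directly, a part of these genes was lower in NK cells, where 12.6% of all genes were lower. Of the replication genes 16 (30.2%) were lower and 2 higher, with a median of -0.35, and of the mitotic genes 24 (39.3%) were lower and 1 higher, with a median of -0.72. The largest were in the DNA methylation reader Uhrf1 (-2.25 ± 0.24), the helicase subunit Gins1 (-2.25 ± 0.31), ribonucleotide reductase, Rrm1 (-1.69 ± 0.35), and the clamp loader gene Rfc3 (-1.60 ± 0.27). Of the mitotic genes they were in the motor Kif23 (-2.44 ± 0.25), the kinetochore gene Nuf2 (-2.07 ± 0.50), Tacc3 (-2.06 ± 0.35), Kif20a (-1.87 ± 0.48), the phosphatase Cdc25c (-1.86 ± 0.42) and the kinase Plk1 (-1.86 ± 0.37). Kif23 lay at 9.99 and 9.99 in pro-B and 7.23 to 8.14 in NK arrays. Helicase and origin genes such as Mcm2 (0.32 ± 0.22), Mcm5 (0.36 ± 0.24, called at 0.75 without pro-B replicate 2) and Cdc6 (-0.07 ± 0.54) were not called, and Prim1 (0.96 ± 0.27, not called at 0.84 without pro-B replicate 1, not called at 0.16 over the mean of its probe sets) and Pttg1 (1.34 ± 0.21) were higher. These counts moved with the processing. Lower replication and mitotic genes numbered 27 and 37 with renewed quantile normalization, 24 and 33 with housekeeping genes as the centre, 22 and 38 in a fit on the 6 arrays alone, and 8 and 12 without pro-B replicate 2.

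**Figure D5:**
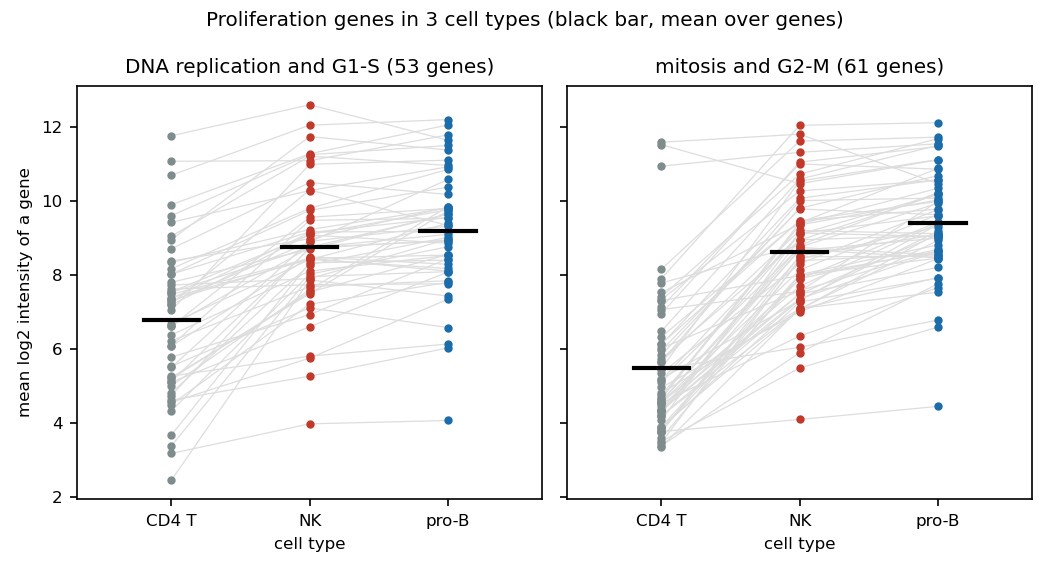
Mean log2 intensity (vertical axis) of the 53 replication and the 61 mitotic genes tested in CD4 T cells (2 arrays), NK cells (4 arrays) and pro-B cells (2 arrays), 1 point per gene, with a grey line joining each gene and a black bar at the mean over genes. The mean over the mitotic genes was 5.47 in CD4 T, 8.63 in NK and 9.41 in pro-B cells.

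Regulators of the cycle differed in both directions. The cyclin Ccnd3 (-1.97 ± 0.24, not called at -0.32 over the mean of its probe sets), which pro-B cells need for their divisions, and the kinases Cdk6 (-1.74 ± 0.22) and Cdk4 (-1.21 ± 0.33, not called at -0.98 without pro-B replicate 2) were lower, as was Cdkn1a (-1.47 ± 0.52, not called at -1.64 to -1.30 when any 1 of the 6 arrays was left out). The retinoblastoma relative Rbl2 (3.73 ± 0.65), the antiproliferative genes Btg1 (2.36 ± 0.44) and Btg2 (1.29 ± 0.31, not called at 0.76 over the mean of its probe sets), the inhibitor Cdkn1b (1.41 ± 0.27), Ccng2 (1.49 ± 0.37) and Rb1 (1.30 ± 0.43, not called at 1.15 to 1.46 when any 1 of 4 arrays was left out, not called at 0.54 over the mean of its probe sets) were higher. Ccnd2, at 10.01 and 10.73 in pro-B and 10.71 to 11.02 in NK arrays, was not called (0.47 ± 0.25, called at 0.83 without pro-B replicate 2). In all, 7 of 16 were higher and 5 lower, 43.8% and 31.2% against 22% and 12.6% of all genes, or 3 lower without pro-B replicate 2. Of the BCL2 family, which decides cell survival, the survival gene Bcl2 had a level of 6.27 and 6.38 in the pro-B arrays, 9.57 and 9.66 in the Ets1-present NK arrays and 10.22 and 10.39 in the Ets1-deficient NK arrays, and the death gene Bcl2l11, BIM, one of 8.15 and 7.75 in the pro-B arrays, 11.11 and 11.34 in the Ets1-present NK arrays and 11.64 and 11.61 in the Ets1-deficient NK arrays. Both were higher in NK cells, by 3.64 ± 0.24 (SE, adjusted p = 5.27e-10) and 3.48 ± 0.28 (SE, adjusted p = 1.03e-08). Mcl1 (0.76 ± 0.24, not called at 0.31 without pro-B replicate 1, 1.21 without pro-B replicate 2, not called at 0.48 over the mean of its probe sets) and Bak1 (1.60 ± 0.26) were higher, Bok (-2.50 ± 0.30) and Bmf (-1.18 ± 0.27) lower, and Bcl2l1 (0.37 ± 0.25) and Bid (0.45 ± 0.51) were not called.

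Immediate early genes, which respond to stimulation within minutes, were split. Fos, of the AP-1 factor, had a level of 10.20 and 10.88 in the pro-B arrays, 6.13 and 5.75 in the Ets1-present NK arrays and 6.50 and 6.67 in the Ets1-deficient NK arrays, and its partner Jun had a level of 7.78 and 7.43 in the pro-B arrays, 2.99 and 3.10 in the Ets1-present NK arrays and 4.18 and 3.75 in the Ets1-deficient NK arrays. Both were lower in NK cells, with differences of -4.28 ± 0.49 (SE, adjusted p = 1.16e-06) and -4.10 ± 0.30 (SE, adjusted p = 2.83e-09), as were Klf4 (-3.77 ± 0.43), Dusp6 (-2.36 ± 0.36) and Zfp36 (-1.77 ± 0.34). Fosl2, another AP-1 gene, ran the opposite way at 3.13 and 2.55 in pro-B and 8.56 to 8.75 in NK arrays (5.85 ± 0.28 (SE, adjusted p = 6.77e-12)), and so did Egr2 (4.68 ± 0.29), Nr4a2 (3.41 ± 0.49), Egr1 (2.37 ± 0.49) and Junb (1.70 ± 0.37, not called at 1.24 without pro-B replicate 2). Of 30 tested, 12 were higher and 9 lower, 40% and 30% against 22% and 12.6% of all genes. Myc (0.41 ± 0.28), Dusp1 (-0.04 ± 0.31) and Tnfaip3 (0.16 ± 0.37) were not called.

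Ribosome biogenesis genes, which make the ribosomal RNA and assemble it, were lower in 12 of 30 and higher in none, so 40% were lower against 12.6% of all genes. The median was -0.67. Nop16, at 8.17 and 8.08 against 5.89 to 6.47, had the largest difference (-2.06 ± 0.37 (SE, adjusted p = 0.000219)), followed by Nop58 (-1.97 ± 0.50), Nolc1 (-1.79 ± 0.24), Nop14 (-1.69 ± 0.30, -1.06 without pro-B replicate 1) and Wdr12 (-1.60 ± 0.37). Ncl, nucleolin, was lower (-1.29 ± 0.36, not called at -1.25 without pro-B replicate 2), and Npm1 (0.09 ± 0.29) and Fbl (0.03 ± 0.24) were not called. The count was 23 with renewed quantile normalization, 19 with housekeeping genes as the centre and 7 without pro-B replicate 2. Of the transporters, the monocarboxylate carrier Slc16a1 was at 9.95 and 10.02 in pro-B and 6.66 to 7.17 in NK arrays (-3.12 ± 0.44 (SE, adjusted p = 1.51e-05)). The amino acid carriers Slc1a5 (-2.66 ± 0.26) and Slc7a5 (-1.82 ± 0.27) and the transferrin receptor Tfrc (-1.84 ± 0.32) were lower, while the glucose carriers Slc2a1 (2.25 ± 0.23) and Slc2a3 (1.38 ± 0.24) were higher. Among hexokinases Hk1 (1.32 ± 0.43, not called at 1.15 to 1.50 when any 1 of 3 arrays was left out, not called at 0.47 over the mean of its probe sets) and Hk3 (1.64 ± 0.25) were higher and Hk2 (-1.26 ± 0.27) lower, and Gapdh (-0.14 ± 0.20), Pgk1 (0.13 ± 0.28) and Ldha (-0.45 ± 0.39) were not called. The list counted 5 higher and 8 lower of 23, 21.7% and 34.8% against 22% and 12.6% of all genes.

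Chromatin genes were called about as often as all genes. Of 20 genes of DNA methylation and Polycomb, 4 were higher and 3 lower, 35% in all against 34.6% of all genes. The median was 0.03. The methyltransferase of repressive chromatin Ezh2 (-1.40 ± 0.24) was lower while its paralog Ezh1 (1.42 ± 0.26, 0.94 without pro-B replicate 2, not called at 0.36 over the mean of its probe sets) was higher. The de novo DNA methyltransferase Dnmt3a (1.64 ± 0.27) and the Polycomb genes Phc2 (1.01 ± 0.24, not called at 0.65 without pro-B replicate 1) and Ring1 (0.83 ± 0.23, not called at 0.66 without pro-B replicate 2) were higher, Tet1 (-1.76 ± 0.28) was lower, and Dnmt1 (0.55 ± 0.26, called at 0.90 without pro-B replicate 2), Suz12 (-0.66 ± 0.35) and Eed (0.26 ± 0.33) were not called. Lower members numbered 6 with renewed quantile normalization, and the median, near 0, changed sign with the scaling. For Dnmt3a the mean over all its probe sets gave -0.11, so its probe sets disagree.

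The ETS family, to which Ets1 belongs, had members on both sides, with 6 of 22 tested higher, 4 lower (27.3% and 18.2% against 22% and 12.6% of all genes) and a median of -0.01, which was 0.12 without pro-B replicate 2. Erg had a level of 8.83 and 9.66 in the pro-B arrays, 2.42 and 3.77 in the Ets1-present NK arrays and 2.93 and 2.76 in the Ets1-deficient NK arrays, the widest difference of the family. Fli1, its close relative, ran the other way, at 7.01 and 6.48 in pro-B and 8.90 to 9.67 in NK arrays (2.61 ± 0.44 (SE, adjusted p = 0.000113)). Elk3 (3.22 ± 0.36, 0.84 over the mean of its probe sets), Etv3 (1.99 ± 0.40), Ets2 (1.45 ± 0.33, not called at 1.06 without pro-B replicate 1) and Erf (0.81 ± 0.25, not called at 0.68 without pro-B replicate 2, not called at 0.29 over the mean of its probe sets) were higher with Ets1 and Fli1, and Spib, Etv6 (-1.77 ± 0.26) and Spi1 were lower with Erg. Elf1 (-0.25 ± 0.31), Elk4 (0.52 ± 0.27), Gabpa (0.44 ± 0.34) and Elf2 (0.46 ± 0.40) were not called.

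The agreement of both genotypes left out 22 genes that were called on the mean, 20 higher and 2 lower. All 22 also differed between the NK genotypes, which the rule that picked them makes nearly certain. Over all genes, 514 of 13479 (3.81%) were called between the genotypes, 1.59% higher and 2.23% lower in Ets1-deficient cells. The collagen receptor Lair1 was at 3.23 and 3.38 in the pro-B arrays, 7.17 and 6.98 in the Ets1-present NK arrays and 3.28 and 3.32 in the Ets1-deficient NK arrays, and only the Ets1-present arrays stood above the pro-B arrays. The inhibitory receptor Pdcd1, PD-1, was at 4.69 and 4.34 in the pro-B arrays, 2.70 and 2.85 in the Ets1-present NK arrays and 4.84 and 5.08 in the Ets1-deficient NK arrays, and the lymphatic growth factor Vegfc at 3.86 and 3.77 in the pro-B arrays, 8.23 and 8.10 in the Ets1-present NK arrays and 3.29 and 2.65 in the Ets1-deficient NK arrays. Among the 4664 genes that agreed, 340 also differed between the genotypes. Taken alone, Ets1-present NK cells differed from pro-B cells in 2758 higher (20.5%) and 1604 lower genes (11.9%), and Ets1-deficient NK cells in 2356 higher (17.5%) and 1219 lower (9.04%); both use the same pro-B arrays.

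Genes of other bone marrow cells moved with the groups. Of 22 tested neutrophil and monocyte genes, 16 were higher in NK cells, 72.7% against 22% of all genes, and none lower. S100a8 had a level of 3.35 and 3.68 in the pro-B arrays, 12.06 and 11.99 in the Ets1-present NK arrays and 10.93 and 10.18 in the Ets1-deficient NK arrays, and S100a9 (6.49 ± 0.39), Ngp (5.95 ± 0.44), Ltf (4.86 ± 0.27), Camp (4.20 ± 0.38) and Lyz1 (2.94 ± 0.24) were higher too. The summed linear intensity of the 23 listed genes with a probe set ranged from 656 to 707 in pro-B, from 14454 to 14952 in Ets1-present NK and from 4518 to 7610 in Ets1-deficient NK arrays. Other listed genes, Cd14 (3.06 to 4.16 in NK arrays), Cebpa (3.45 to 3.65) and Adgre1 (3.59 to 4.71), were near the array medians and not called, and Itgam was dim. The part of other cells in the NK values was not tested.

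Some plasma and mature B cell genes had signal in the pro-B arrays. Of 10 tested, 5 were lower and 1 higher in NK cells, 50% and 10% against 12.6% and 22% of all genes. Against CD4 T cells, 3 were higher and 4 lower in pro-B cells, where 11.8% and 17% of all genes were. Jchain had a level of 11.39 and 11.68 in the pro-B arrays, 2.64 and 2.85 in the Ets1-present NK arrays and 2.83 and 3.49 in the Ets1-deficient NK arrays, the plasma cell proteoglycan Sdc1 (-3.51 ± 0.27) and the receptor Tnfrsf17 (-1.34 ± 0.18) were lower in NK cells, and Ms4a1, CD20 of later B cells, was at 6.39 and 6.58 against 2.53 to 2.93. Tnfrsf17 had a low signal, with a mean of 4.43 in pro-B and 3.09 in NK arrays. Prdm1, which plasma cells need, was low in pro-B cells, at 3.42 and 2.59, and Xbp1 (0.64 ± 0.37) was not called. The summed intensity of the 11 listed genes with a probe set was 3739 to 4844 in pro-B and 1391 to 1668 in NK arrays. CD4 T arrays had Jchain at 7.56 and 7.48. The part of these cells in the pro-B values was not tested.

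T cell genes were low in both cell types with exceptions. Of 15 tested, 5 were higher in NK cells, Cd28 (4.62 ± 0.40), Icos (4.01 ± 0.26), Bcl11b (3.26 ± 0.36), Cd3g (3.75 ± 0.21) and Cd3d (3.37 ± 0.30), and Cd5 (-1.12 ± 0.22) was lower. These were 33.3% and 6.67% of the list, against 22% higher and 12.6% lower of all genes. Cd5 was near background, with a mean of 3.90 in pro-B and 2.78 in NK arrays, and its fold was only at least 1.05. The CD3 chains followed the genotype, with Cd3g at 4.51 and 4.62 in NK arrays with Ets1 and 8.69 and 8.36 in those without, while Cd4, at 4.11 to 4.59, and Cd3e, at 5.04 to 5.18, stayed near their pro-B level. The T cell list summed to 223 to 254 in pro-B and 1036 to 1319 in NK arrays. Erythroid and megakaryocyte genes had 1 called gene of 13 (7.69%), Car2 (1.66 ± 0.45, not called at 1.46 without pro-B replicate 2), which was higher. Dendritic cell genes had 1 higher and 2 lower of 12 (8.33% and 16.7%). Mast cell, basophil and innate lymphoid genes had 2 and 1 of 9 (22.2% and 11.1%). The last 2 pairs of shares were not far from those of all genes, 22% and 12.6%. None of the 5 stromal and endothelial genes tested was called.

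Some genes that vary by strain or sex differed between the groups too. Gbp2b, a guanylate-binding protein gene that varies between strains, was at 3.09 and 3.28 in the pro-B arrays, 7.10 and 6.88 in the Ets1-present NK arrays and 4.52 and 5.96 in the Ets1-deficient NK arrays, and Nnt, which is truncated in some C57BL/6 lines, at 8.32 and 8.68 against 9.17 to 9.68. The difference of Nnt was 0.88 ± 0.33, not called at 0.70 to 1.06 when any 1 of the 6 arrays was left out, and -0.18 over the mean of its probe sets. Ifi202b, which also varies by strain, was dim in both and not tested. The Y-linked genes Eif2s3y (5.62 ± 0.50), Kdm5d (2.92 ± 0.32) and Uty (1.71 ± 0.24) were higher in NK cells, at 7.55 to 8.73 against 2.49 and 2.57 for Eif2s3y, while Xist, transcribed from the inactive X, was at 8.65 to 9.78 in NK and 9.87 and 10.29 in pro-B arrays and not called. All 4 NK arrays thus held both signals and both pro-B arrays held Xist alone. How many genes differ by strain or sex was not tested. Of the 16 housekeeping genes tested 5 were higher and 3 lower, 31.2% and 18.8% against 22% and 12.6% of all genes. Among them were Actb (1.36 ± 0.19, not called at 0.43 over the mean of its probe sets) and Psmb2 (-1.27 ± 0.31, not called at -0.97 without pro-B replicate 2). The median of the list was 0.06. This median was -0.27 with renewed quantile normalization and -0.18 with the list itself as the centre.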

How the data were processed

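Cells were sorted into lysis buffer, and RNA was amplified and hybridised to Affymetrix arrays, per the labels' protocols. The deposited table holds linear intensities of 45101 probe sets, which the authors made with RMA, per the submitters' processing notes. No RMA version was found in those notes. Log2 values had been planned for, so the deposited intensities were converted to log2 first. In the annotation table used, 34958 probe sets had 1 gene symbol, 932 several and 9211 none, and 34754 matched a RefSeq gene. The single-symbol probe set with the highest mean over all 20 arrays stood for its gene. Genes were tested if 2 or more arrays lay above their own median.

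Group means were fitted once over 20 arrays in 9 groups (11 residual degrees of freedom) with limma 3.58.1 under R 4.3.3, using lmFit and eBayes with a trend. P-values were adjusted over 13479 genes. The fit was tested on simulated data, and the number of arrays limits its precision. Members and gene lists were chosen with earlier results of these data known. Named genes were Rag2 and Ets1, the 12 largest differences in each direction, up to 6 called members per list and direction, and up to 4 uncalled members or those needed to account for a list. Further members were chosen after their values were seen, to show a process from both sides. Alternatives were other filters on dim genes, probe set rules, scalings, array sets, array weights, thresholds and leaving out each array.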

Additional observations from a re-analysis of the deposited data

Results flagged for a closer look

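The genotypes of the NK cells differed from each other, by the test of that difference in limma, in at least 38 of the 342 named genes tested (11.1%). Named genes not called between NK and pro-B cells, such as Cd44, were left out of the 38. The share of all genes, 3.81%, had no such filter, so the 2 shares are not alike. Lair1, Pdcd1 and Vegfc were named because the genotypes differed. These differences are Ets1-deficient minus Ets1-present NK cells on the log2 scale, and they equal the difference between the genotypes' distances to pro-B cells, since both use the same pro-B arrays. The smallest group allows no test for single outlying arrays, as each group holds 2.

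Most were lower without Ets1. Among chemokines and cytokines the values were -2.50 for Xcl1, -1.84 for Ccl3, -1.56 for Ccl4, -4.71 for Ltb and -5.19 for Vegfc. Among receptors and surface proteins they were -3.77 for Lair1, -2.59 for Il7r, -2.16 for Crtam, -2.01 for Klra17, -1.76 for Cd27, -1.58 for Slamf6, -1.52 for Icos, -1.50 for Thy1, -1.45 for Cd93 and -1.22 for Fcgr3. Cnn3 had -3.0, Skap1 -1.03, Hk3 -1.49, Tcf4 -1.25, Xaf1 -1.21, H2-Ob -2.10, H2-Oa -1.34 and Tap1 -1.0. The neutrophil genes Ltf and Lyz1 had -1.94 and -1.04, the strain-variable gene Gbp2b -1.75 and the Y-linked gene Uty -1.81.

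The others were higher without Ets1. The granule proteases Gzmb and Gzmk had 2.67 and 1.45, the inhibitory receptors Klra5, Pdcd1 and Klrg1 had 2.79, 2.19 and 1.75, and the CD3 chains Cd3g and Cd3d had 3.96 and 2.88. Socs2 had 2.89, Pou2af1 2.41, Sox4 1.92 and Nfil3 1.47.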

How the results depend on the processing

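The 2968 higher and 1696 lower genes became 4924 and 2999 with every probe set tested on its own, which tests more features. They became 815 and 335 against a 2-fold threshold, and 1949 and 1002 where each NK genotype had to be called by itself, both stricter by construction. Leaving out each array in turn gave 2286 to 2747 higher and 1124 to 1466 lower genes. The lowest count of lower genes was without pro-B replicate 2, and the cause was not tested. Other filters on dim genes, no intensity trend, both other scalings, averaged probe sets, array weights and the 6 arrays alone kept each count within 1.5 times. Averaging the probe sets of each gene turned the sign of 87 of 4574 called genes, and none of the other settings in which called genes could be matched turned any. Of 342 genes named and tested, 270 were called, and 172 of these kept their call in every alternative. Of the 72 not called, 34 were called in 1 or more alternatives. Those whose sign turned were Dnmt3a (-0.11), Nnt (-0.18), Slamf6 (-0.68) and Xaf1 (1.80) with the mean of probe sets, and Cd44, uncalled in the pooled comparison, with the Ets1-deficient arrays alone (-1.07). With the replicate number as a block over the 6 arrays, 3290 genes were higher and 2083 lower. Replicate deviations correlated at 0.01, -0.02 and -0.04 between groups, so no effect shared by arrays of equal number was seen. These values cannot show whether such arrays were prepared together. Groups of 2 arrays and signals near background limit what small or dim differences can show.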
